A study of Mus musculus with 13 samples.

Results

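Ccl21, its sister chemokine Ccl19 and 6 genes that mark lymphatic vessels were followed in mouse hearts over 3 treatment groups. The 9 gene symbols taken were Ccl21a, Ccl21c, Ccl19, Flt4, Pdpn, Lyve1, Mmrn1, Prox1 and Reln. Every probe of the array whose annotated gene symbol, current or older, was one of these was kept, which gave 18 of 45281 probes. Ccl21a and Ccl21c were chosen because their signals differed strongly in the mice given sAcvR2B-Fc, so their values in that group are a description with no test. The other genes were chosen for their known role. An array probe counts as detected here where its deposited detection p-value is under 0.05, and 11 of the 18 probes were detected on at least 3 arrays. Each of the 9 genes kept at least 1 such probe, and these 11 are the probes given log2 differences.

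The hearts came from male C57BL/6 mice of 8 to 10 weeks, with each array taken as 1 mouse. In the first group 3 mice received sAcvR2B-Fc and, 48 hours later, doxorubicin. A second group of 5 mice received doxorubicin alone, and 5 further mice received PBS. All injections were intraperitoneal and hearts were taken 20 hours after doxorubicin or PBS. sAcvR2B-Fc is a soluble activin receptor 2B joined to an antibody Fc tail, a decoy that binds activins and related ligands. Doxorubicin is an anthracycline chemotherapy drug that harms heart muscle. No group given sAcvR2B-Fc without doxorubicin was analysed here, so its effect in hearts without the drug cannot be read from these arrays. Total RNA of the heart was measured, and in such bulk samples fewer cells of a type and less RNA per cell cannot be told apart.

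Ccl21 is a secreted chemokine made by lymphatic endothelial cells and by the stroma of lymph nodes. It draws dendritic cells and T cells that carry the receptor Ccr7 into lymphatic vessels, and Ccl19 is the other ligand of that receptor. In the mouse Ccl21 is encoded by several nearly identical gene copies in one region of chromosome 4. Lymphatic vessels of the heart drain fluid and immune cells, and their endothelium is set up by the transcription factor Prox1 and grows in response to the ligands Vegfc and Vegfd through the receptor Flt4, also called VEGFR3.

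The mouse gene table of build GRCm38.p6 lists Ccl21c as a gene of its own. It also gives Ccl21c as an older symbol of 3 other genes, Ccl21d, Gm13304 and Gm10591. To these copies 0 probes of the array are annotated. For Ccl21c itself no upstream sequence was matched, so none is shown. The upstream sequences of Ccl21a and of these copies are shown because they let the copies be compared with each other. They are the 250 bases before each gene's start in RefSeq, read 5′ to 3′ on the gene's own strand. Capitals mark the positions at which a copy differs from Ccl21a. Ccl21a lies on the minus strand, with these bases at chr4:42773992-42774241. Ccl21d, Gm13304 and Gm10591 lie on the plus strand, with theirs at chr4:41903363-41903612, chr4:42114537-42114786 and chr4:42611873-42612122.
Ccl21a: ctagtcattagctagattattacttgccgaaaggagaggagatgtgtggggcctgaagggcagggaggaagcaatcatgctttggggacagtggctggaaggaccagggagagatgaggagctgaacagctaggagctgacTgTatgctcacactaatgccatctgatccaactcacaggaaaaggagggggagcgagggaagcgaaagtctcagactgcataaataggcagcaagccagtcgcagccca
Ccl21d: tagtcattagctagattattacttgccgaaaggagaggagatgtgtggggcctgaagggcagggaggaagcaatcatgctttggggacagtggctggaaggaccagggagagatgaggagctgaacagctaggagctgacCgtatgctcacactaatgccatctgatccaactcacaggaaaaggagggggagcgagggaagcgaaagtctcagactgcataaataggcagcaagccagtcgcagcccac
Gm13304: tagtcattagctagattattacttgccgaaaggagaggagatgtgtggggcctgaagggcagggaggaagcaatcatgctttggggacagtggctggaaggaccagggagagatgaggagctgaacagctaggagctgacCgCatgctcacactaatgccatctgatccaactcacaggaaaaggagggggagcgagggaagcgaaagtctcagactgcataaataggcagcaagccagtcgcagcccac
Gm10591: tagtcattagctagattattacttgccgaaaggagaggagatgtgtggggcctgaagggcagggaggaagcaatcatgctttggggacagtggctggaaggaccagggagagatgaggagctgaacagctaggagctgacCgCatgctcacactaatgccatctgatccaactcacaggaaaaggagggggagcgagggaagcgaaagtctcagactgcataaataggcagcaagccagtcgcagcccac

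Shifted by 1 base against each other, Ccl21d matched Ccl21a at 248 of 249 bases, and Gm13304 and Gm10591 each matched it at 247 of 249. Counted from 1 at the 5′ end of the Ccl21a stretch, Ccl21d differed by T142C, and Gm13304 and Gm10591 by T142C and T144C. Gm13304 and Gm10591 were identical over all 250 bases. The letters ATAAATA, a form of the TATA box, occurred 1 time on either strand in each of these upstream sequences. They were found in 5.17% of the 32851 upstream sequences of the same length. The letters CAGAC, the core of the element bound by the SMAD proteins that carry activin signals, also occurred 1 time in each, and 42.2% of all upstream sequences hold them. Of the other members, Ccl19, Flt4, Pdpn, Mmrn1, Prox1 and Reln were matched to the same table. CAGAC was not found in their windows, and ATAAATA was found only in that of Pdpn.

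The columns of the 2 deposited tables are linked to the same 13 samples, but 8 of the 13 samples fall on different arrays, 6 of them in another group. For the non-normalized table this link is the column name that each sample's label states, and the series matrix is headed by sample identifiers. Values below follow the names of the non-normalized table. Only 7 arrays have the same group in both tables: 1 pre-treated, 3 doxorubicin and 3 PBS. For Ccl21, Pdpn, Mmrn1, Lyve1, Vegfc, Vegfd, Kcne1 and Vsig4 the differences are also given as the series matrix names them. Between 15989 and 17939 probes were detected per array, and the median signal before normalization was between 101.5 and 136.3. Across all 18693 probes that passed detection, the median log2 difference was 0.02 for pre-treated against doxorubicin hearts, 0.0055 for pre-treated against PBS hearts and 0.00047 for doxorubicin against PBS hearts.

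Ccl21 signal was several-fold lower in the hearts of pre-treated mice than in both other groups, on each of the 3 probes. After doxorubicin alone Ccl21 overlapped with its levels in PBS hearts. None of the probes of the lymphatic vessel markers passed the test in any comparison. Their lowest difference in the pre-treated hearts was -0.63 on the log2 scale, against -2.52 to -3.01 for the Ccl21 probes. In doxorubicin and PBS hearts Flt4, Mmrn1 and Prox1 probe ILMN_2894355 averaged 5.41 to 6.73. An undetected Mmrn1 probe averaged 4.53 and 4.57 there. A fall as large as that of Ccl21 could therefore not have been measured for Flt4, Mmrn1 or that Prox1 probe.

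The Ccl21a probe read 7.28, 6.05 and 7.34 in the pre-treated hearts, 9.73, 9.98, 9.53, 9.73 and 9.65 in the doxorubicin hearts, and 10.05, 9.83, 9.53, 9.99 and 10.10 in the PBS hearts, as normalized log2 signal. Every pre-treated heart lay below every other heart, while the doxorubicin and PBS hearts overlapped over most of their range. In the signal as deposited, before background correction, this was 151 to 287.7 units in pre-treated hearts, 562.1 to 1431.1 in doxorubicin hearts and 636.5 to 1467 in PBS hearts. The group means were 6.89 ± 0.73 (SD, n = 3) for pre-treated, 9.73 ± 0.16 (SD, n = 5) for doxorubicin and 9.90 ± 0.23 (SD, n = 5) for PBS hearts. Ccl21a was 7.16-fold lower in pre-treated than in doxorubicin hearts (log2 difference -2.84 ± 0.24, SE). It was 8.07-fold lower in pre-treated than in PBS hearts (-3.01 ± 0.24). Pre-treated replicate 2 stood lowest, and without it the difference from doxorubicin hearts was -2.42.

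**Figure D1:**
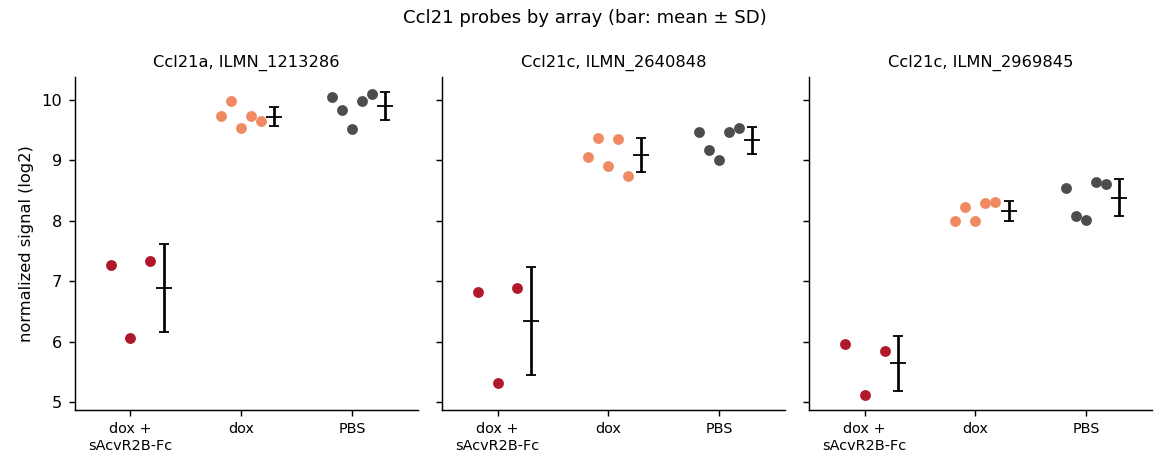
Normalized log2 signal (vertical axis) of the 3 Ccl21 probes in each heart, grouped as doxorubicin with sAcvR2B-Fc (n = 3), doxorubicin (n = 5) and PBS (n = 5); each point is 1 array and bars show the mean ± SD. On each probe the 3 pre-treated hearts lie below all 10 others, and doxorubicin and PBS hearts overlap.

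The first Ccl21c probe (ILMN_2640848) read 6.82, 5.31 and 6.89 in pre-treated hearts, 9.06, 9.38, 8.92, 9.35 and 8.74 in doxorubicin hearts, and 9.48, 9.18, 9.01, 9.48 and 9.53 in PBS hearts. The second (ILMN_2969845) read 5.96, 5.12 and 5.84 in pre-treated hearts, 7.99, 8.22, 7.99, 8.30 and 8.30 in doxorubicin hearts, and 8.54, 8.09, 8.01, 8.65 and 8.62 in PBS hearts. Both repeat the pattern of the Ccl21a probe, with pre-treated replicate 2 lowest and not detected on the second probe. The pre-treated hearts were lower than doxorubicin hearts by 6.74-fold on the first Ccl21c probe (-2.75 ± 0.29, SE) and by 5.73-fold on the second (-2.52 ± 0.20). Against PBS hearts they were lower by 7.98-fold and by 6.66-fold. Groups that did not overlap in this direction were found for 2.57% of all probes against doxorubicin and 5.03% against PBS, but the Ccl21 probes were picked for this difference, so nothing is read from their 3 of 3.

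The 3 Ccl21 probes moved together from array to array. Their pairwise correlations were 0.983 to 0.995 over the 13 arrays and 0.708 to 0.868 over the 10 doxorubicin and PBS arrays alone. These points share their arrays, so the probes are not 3 independent observations. Probe sequences were not used here, and which of the gene copies each probe binds was not tested. The Ccl21a and Ccl21c values are therefore signals of the probes so annotated, not levels of single copies.

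Doxorubicin against PBS is the comparison in which Ccl21 was not chosen, and there it did not pass the test. The log2 difference was -0.17 ± 0.21 for Ccl21a (SE, n = 5 each, limma adjusted p = 0.827). It was -0.24 ± 0.25 and -0.22 ± 0.17 for the Ccl21c probes (limma adjusted p = 0.787 and 0.703). The 95% interval of the Ccl21a difference ran from -0.62 to 0.28, so a moderate change in either direction is not shown to be absent. In all, limma called 0.182% of the 18693 probes in this comparison, and 0 of the 11 probes of these genes.

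Named as in the series matrix, the 3 hearts with low Ccl21 fall 1 into each group: pre-treated replicate 1, doxorubicin replicate 4 and PBS replicate 3. The difference in Ccl21a was then -0.50 for pre-treated against doxorubicin hearts and -0.33 for pre-treated against PBS hearts, and the groups overlapped. Under these names limma called 0 probes in any comparison. On the Ccl21c probes it was -0.55 and -0.31 against doxorubicin hearts. Among the 7 arrays whose group is the same in both tables, the single pre-treated one read 7.28 for Ccl21a, below the 3 doxorubicin and 3 PBS arrays. That 3 arrays are low in Ccl21 holds under either set of names, and which treatment those 3 mice received depends on which table names them correctly.

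**Figure D2:**
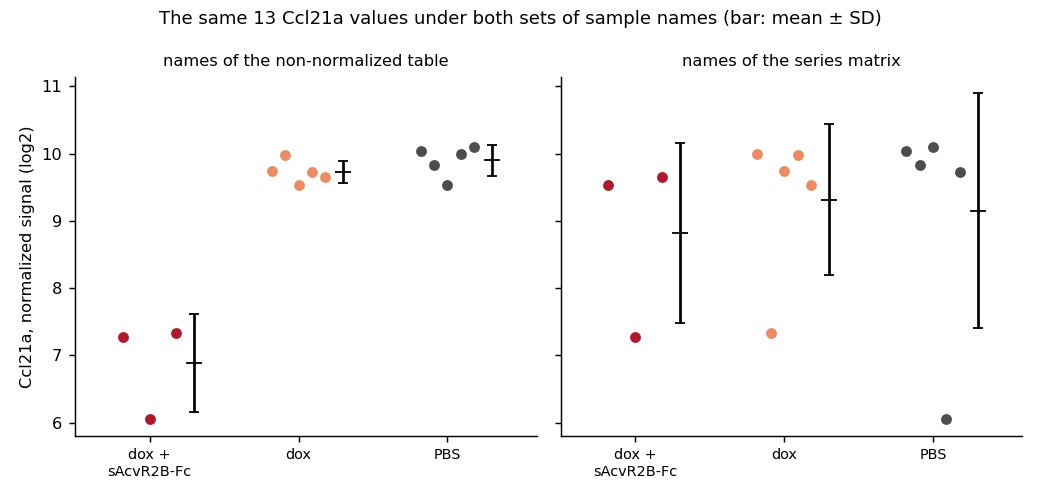
Normalized log2 signal of Ccl21a (vertical axis) in the same 13 arrays, grouped by the names in the non-normalized table (left) and in the series matrix (right); points are arrays and bars show the mean ± SD. The 3 low arrays, at 6.05, 7.28 and 7.34, are all pre-treated on the left, and 1 lies in each group on the right.

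For 10114 named genes the correlation with the mean of the 3 Ccl21 probes was ranked over the 13 arrays. The nearest 5 were Kcne1 (r = 0.944), Uri1 (0.930), Map1b (0.903), Efr3a (0.901) and Fut4 (0.892). This ranking takes in the gap of the pre-treated hearts for which Ccl21 was chosen. It therefore favours genes that are low in those 3 arrays, and their group levels are a description only. Kcne1 is a subunit of a slow potassium channel of heart muscle, Uri1 a prefoldin-like protein, Map1b a microtubule-binding protein and Fut4 a fucosyltransferase. Over the 10 doxorubicin and PBS arrays alone the correlation was 0.868 for Efr3a and between -0.18 and 0.41 for the other 4. The Efr3a probe used differed by -0.26 between pre-treated and doxorubicin hearts and by -0.33 between pre-treated and PBS hearts. Another Efr3a probe, also detected on 13 arrays, had the opposite sign, at 0.27 and 0.11. Between pre-treated and doxorubicin hearts Map1b differed by -0.72 on the probe used and by -0.16 on another detected on 13 arrays. Kcne1 averaged 5.23 ± 0.22 in pre-treated, 7.61 ± 0.47 in doxorubicin and 7.79 ± 0.17 in PBS hearts (SD). These values are from a probe detected on 12 arrays. The other passing Kcne1 probe was detected on only 4 arrays and differed by -0.02 between pre-treated and doxorubicin hearts. On so dim a probe a fall of that size could not have been measured. Named as in the series matrix, Kcne1 differed by -0.28 from doxorubicin and by -0.02 from PBS hearts. Among the lymphatic genes the correlation over 13 arrays, which takes in the gap of the pre-treated hearts for which Ccl21 was chosen, was 0.695 for Pdpn, 0.627 for Mmrn1, 0.596 for Reln and -0.44 for Lyve1. Over the 10 other arrays Ccl21a alone correlated with them at 0.047, 0.338, 0.343 and -0.45 in the same order. For Flt4, Ccl19 and Prox1 probes ILMN_2598766 and ILMN_2894355 the correlation over 13 arrays was 0.062, 0.044, -0.13 and -0.24. With Ccl21a alone over the 10 other arrays it was 0.25 for Flt4, 0.55 for Ccl19 and -0.14 for Prox1 probe ILMN_2598766.

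The second ligand of Ccr7, Ccl19, was close to the detection limit. It was detected on 2 of 3 pre-treated, 3 of 5 doxorubicin and 2 of 5 PBS arrays. Its levels ran from 5.03 to 5.47 in pre-treated, 4.98 to 5.33 in doxorubicin and 5.11 to 5.43 in PBS hearts, with the 3 groups on top of each other. The log2 difference was 0.04 ± 0.13 for pre-treated against doxorubicin and -0.01 ± 0.13 against PBS hearts (SE, limma adjusted p = 0.918 and 0.977). At so dim a signal a change in Ccl19 of the size seen for Ccl21 could not have been measured in the downward direction.

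Over the 8 probes of Ccl19 and the vessel markers, limma called 0 in each comparison, where it called 0.0642% of all probes for pre-treated against doxorubicin hearts and 0.674% for pre-treated against PBS hearts. The median difference of the 8 was -0.08 for pre-treated against doxorubicin, 0.03 for pre-treated against PBS and 0.04 for doxorubicin against PBS hearts. In both comparisons of the pre-treated group, 2 of the 8 did not overlap between groups, against 7.08% of all probes for doxorubicin and 12.6% for PBS. In doxorubicin against PBS hearts 0 of the 8 did, against 2.55% of all probes. None of the 8 was called under any other setting or with any 1 array left out.

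**Figure D3:**
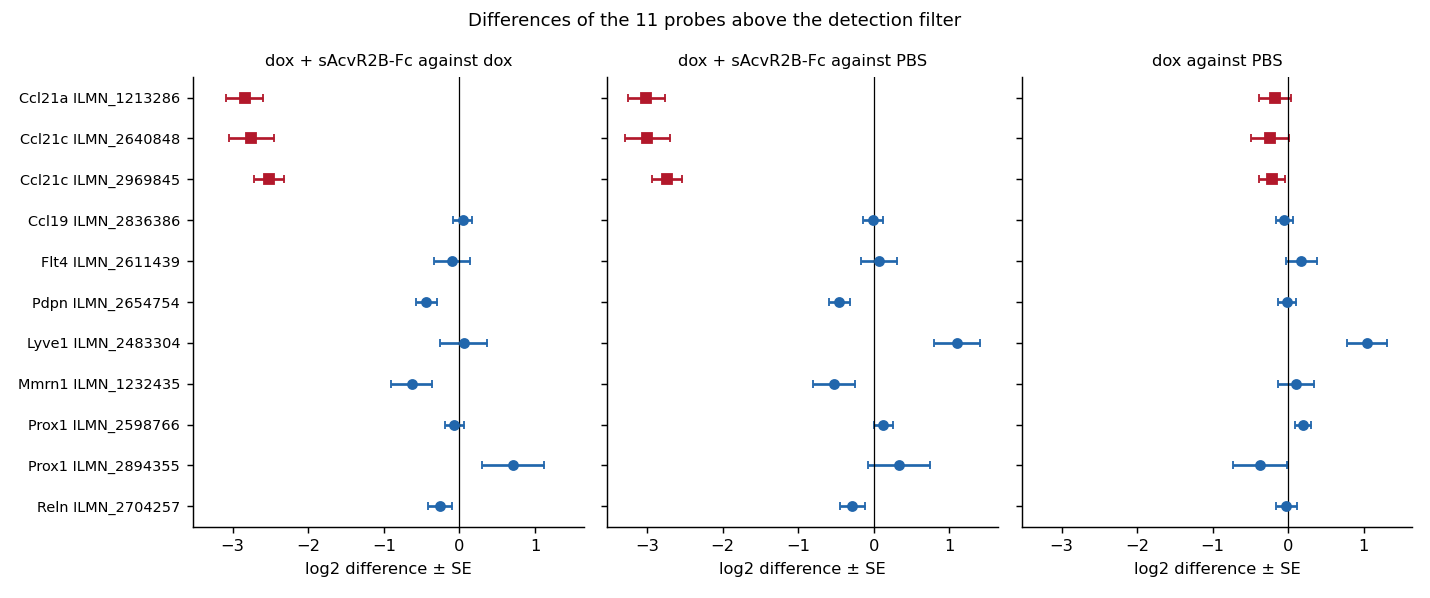
Log2 difference ± SE (horizontal axis) of the 11 detected probes for pre-treated against doxorubicin (left), pre-treated against PBS (middle) and doxorubicin against PBS hearts (right); squares are Ccl21 probes, circles Ccl19 and the vessel markers. The squares lie between -3.01 and -2.52 in the left and middle panels, and the circles between -0.63 and 1.10 over all panels.

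Prox1, the transcription factor that sets lymphatic endothelial identity and is also made by heart muscle cells, had 2 probes, both detected on all arrays. Its brighter probe (ILMN_2598766) read 9.42, 9.63 and 9.51 in pre-treated hearts, 9.74, 9.50, 9.35, 9.68 and 9.67 in doxorubicin hearts, and 9.52, 9.18, 9.42, 9.58 and 9.28 in PBS hearts. All 3 groups overlapped. It differed by -0.07 ± 0.12 for pre-treated against doxorubicin, 0.12 ± 0.12 for pre-treated against PBS and 0.19 ± 0.11 for doxorubicin against PBS hearts (SE, limma adjusted p = 0.855, 0.672 and 0.545). The other probe (ILMN_2894355) read 6.61, 6.88 and 6.70 in pre-treated hearts, 6.75, 5.70, 5.28, 6.83 and 5.54 in doxorubicin hearts, and 6.93, 6.02, 5.28, 6.91 and 6.85 in PBS hearts. On it 5 doxorubicin and PBS arrays lay apart at 5.28 to 6.02, a gap the brighter probe does not show, and it differed by 0.71 ± 0.41 for pre-treated against doxorubicin hearts (limma adjusted p = 0.530).

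Flt4, the receptor for Vegfc and Vegfd on lymphatic endothelium, had 1 of its 3 probes above detection, on 3 of 3 pre-treated, 4 of 5 doxorubicin and 4 of 5 PBS arrays. It read 5.21, 5.43 and 5.80 in pre-treated hearts, 5.27, 6.06, 5.02, 5.52 and 6.01 in doxorubicin hearts, and 5.50, 5.05, 5.41, 5.79 and 5.28 in PBS hearts. No group stood apart, but at so dim a signal a fall of the size seen for Ccl21 could not have been measured. The difference was -0.10 ± 0.24 for pre-treated against doxorubicin and 0.07 ± 0.24 against PBS hearts (SE, limma adjusted p = 0.899 and 0.911).

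Pdpn, the membrane glycoprotein podoplanin of lymphatic endothelium and epicardium, read 7.68, 8.09 and 8.13 in pre-treated hearts, 8.14, 8.59, 8.50, 8.26 and 8.54 in doxorubicin hearts, and 8.52, 8.56, 8.40, 8.36 and 8.31 in PBS hearts. The pre-treated hearts lay below all others, the highest of them at 8.13 next to the lowest doxorubicin heart at 8.14. Of all probes, 2.57% lay apart in this direction against doxorubicin and 5.03% against PBS hearts. The difference was -0.44 ± 0.14 for pre-treated against doxorubicin and -0.46 ± 0.14 against PBS hearts (SE, limma adjusted p = 0.359 and 0.122), and neither passed. Named as in the series matrix it was -0.14 against both. Of 7 mesothelial and epicardial markers 1, Upk3b, passed detection, and Msln, which defines mesothelium, was detected on 0 arrays.

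Mmrn1, the secreted protein multimerin of endothelium and platelets, read 6.15, 5.76 and 6.37 in pre-treated hearts, 6.90, 6.43, 6.81, 6.96 and 6.54 in doxorubicin hearts, and 6.25, 6.79, 5.80, 7.13 and 7.14 in PBS hearts. The pre-treated hearts lay below every doxorubicin heart, as for 2.57% of all probes, but overlapped with PBS hearts, which had the widest spread. The difference was -0.63 ± 0.27 against doxorubicin and -0.53 ± 0.27 against PBS hearts (SE, limma adjusted p = 0.438 and 0.357), and -0.57 and -0.42 with the groups of the series matrix. Of 6 platelet markers 5 passed detection and 0 were called in any comparison. Their summed signal was 407 to 626 in pre-treated, 419 to 1018 in doxorubicin and 485 to 780 in PBS hearts, and their part in the Mmrn1 values was not tested.

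Reln, the secreted glycoprotein reelin that lymphatic endothelium releases, was read by 1 of its 5 probes, the others being detected on 0 arrays. It stood at 7.54, 7.26 and 7.74 in pre-treated hearts, 8.00, 7.65, 7.84, 7.67 and 7.67 in doxorubicin hearts, and 7.65, 7.91, 7.41, 8.14 and 7.87 in PBS hearts. The groups overlapped. The difference was -0.26 ± 0.16 for pre-treated against doxorubicin and -0.28 ± 0.16 against PBS hearts (SE, limma adjusted p = 0.564 and 0.404).

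Lyve1, a hyaluronan receptor of lymphatic endothelium and of resident macrophages of the heart, stood higher in both doxorubicin-injected groups than in most PBS hearts. It read 8.48, 8.60 and 8.12 in pre-treated hearts, 8.47, 8.01, 9.08, 8.49 and 7.66 in doxorubicin hearts, and 8.03, 7.46, 7.30, 6.63 and 7.09 in PBS hearts. Pre-treated and doxorubicin hearts overlapped. All pre-treated and 3 of the 5 doxorubicin hearts lay above every PBS heart. Over all probes, 12.6% did not overlap between pre-treated and PBS hearts in either direction. The difference was 1.10 ± 0.31 for pre-treated against PBS, a 2.14-fold higher level, and 1.04 ± 0.27 for doxorubicin against PBS, 2.06-fold higher (SE, limma adjusted p = 0.106 and 0.155). Neither passed the test over all probes. Between pre-treated and doxorubicin hearts it was 0.06 ± 0.31 (adjusted p = 0.955), and under the series matrix names the difference from PBS hearts was -0.12 for pre-treated and 0.13 for doxorubicin hearts.

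All 8 resident macrophage markers passed detection, and 1, Vsig4, was called, higher in pre-treated than in doxorubicin hearts (2.83 ± 0.27, SE) and than in PBS hearts (3.42 ± 0.27, limma adjusted p = 0.000187 and 2.72e-05). Over all probes limma called 0.0642% and 0.674% in these 2 comparisons. Under the series matrix names the Vsig4 differences were -0.06 and -0.10, and the call ended. Of the 8 differences from PBS hearts, 7 were above 0 in pre-treated hearts (median 0.42) and 7 in doxorubicin hearts (median 0.33), the same sign as for Lyve1. For Cbr2 the difference of pre-treated from PBS hearts was 0.62 ± 0.18, and for Mrc1, the mannose receptor and the 1 marker below 0 there, -0.34 ± 0.17 (limma adjusted p = 0.115 and 0.329). Timd4 was detected on 3 of 3 pre-treated, 4 of 5 doxorubicin and 0 of 5 PBS arrays. The summed signal of the 8 was 2490 to 4476 in pre-treated, 2594 to 3233 in doxorubicin and 1850 to 2892 in PBS hearts. The part of macrophages in the Lyve1 values was not tested.

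**Figure D4:**
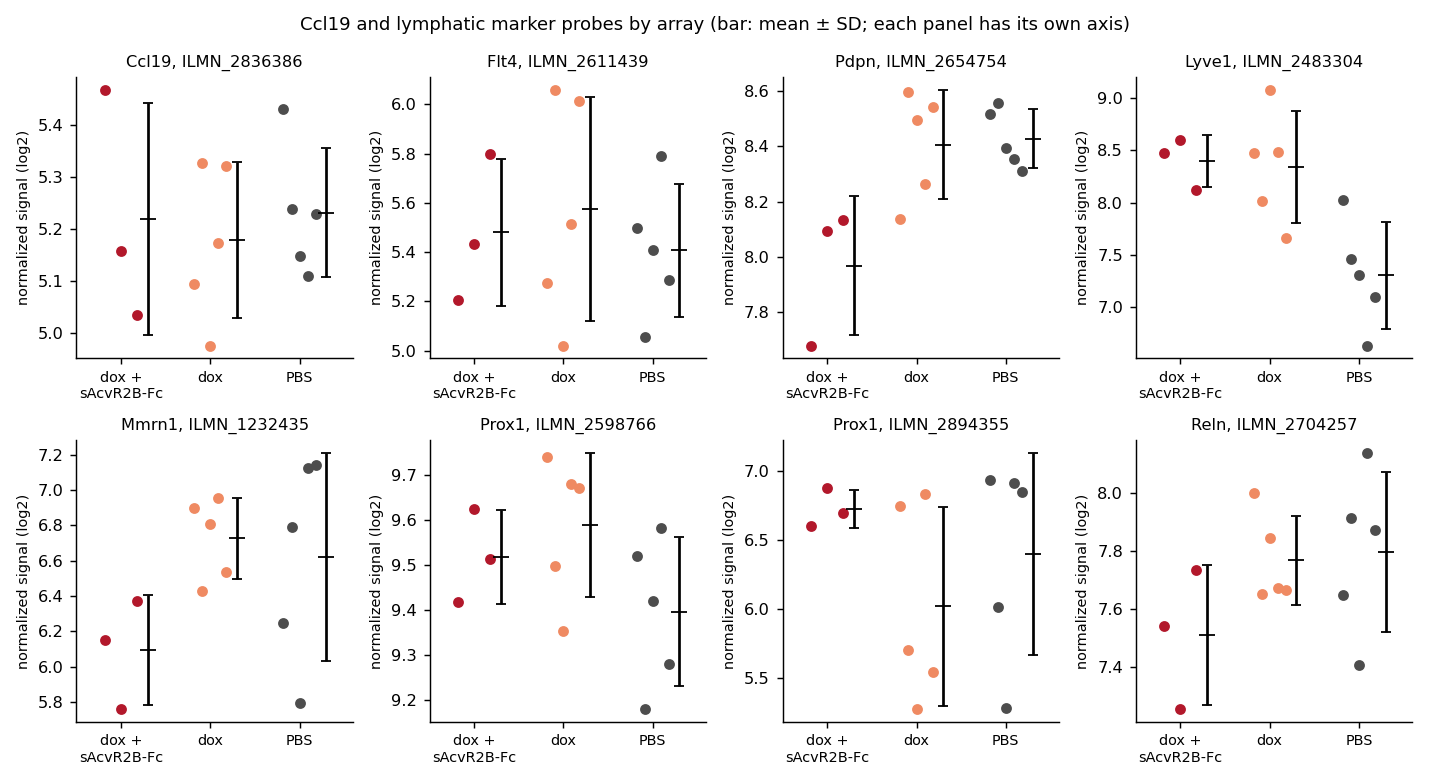
Normalized log2 signal (vertical axes, each panel its own) of the 8 Ccl19 and vessel marker probes in each heart, by group from left to right doxorubicin with sAcvR2B-Fc (n = 3), doxorubicin (n = 5) and PBS (n = 5); points are arrays and bars the mean ± SD. Lyve1 is lowest in PBS hearts, Pdpn lowest in pre-treated hearts, and on the dimmer Prox1 probe 5 arrays lie apart at 5.28 to 6.02.

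The 7 probes outside the detection filter were 2 of Flt4, 1 of Mmrn1 and 4 of Reln. One Flt4 probe was detected on 1 array and the other 6 probes on 0 arrays. They give no level here, and the values of Flt4, Mmrn1 and Reln rest on 1 probe each.

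Across the 10 doxorubicin and PBS hearts, where Ccl21 was not set apart by treatment, Ccl21a was correlated with 7 other genes, 1 probe each. Pearson's r ran from -0.45 for Lyve1 to 0.55 for Ccl19, and Spearman's rho from -0.38 to 0.44 for the same genes. The smallest permutation p was 0.0994 for Pearson's r and 0.204 for Spearman's rho, both with Ccl19, and the smallest adjusted over the 7 relations was 0.605 and 0.700. Without the 2 arrays farthest from the median of Ccl21a, r ran from -0.44 to 0.50. These values pool both groups. For deviations from each group's own mean, r ran from -0.22 for Lyve1 to 0.52 for Ccl19, without a test. Each group alone holds 5 hearts, too few for a correlation of its own. The pre-treated hearts were left out because they lie apart in Ccl21a.

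Of the genes that drive lymphatic growth, the ligand Vegfc fell in pre-treated hearts relative to PBS hearts. Of the 9 genes of this pathway list, 5 passed detection. Vegfc was the 1 called, for pre-treated against PBS hearts, where limma called 0.674% of all probes. In the other comparisons 0 of the 5 were called. It read 7.20, 7.38 and 6.98 in pre-treated hearts, 8.14, 8.25, 7.64, 7.97 and 7.75 in doxorubicin hearts, and 8.21, 7.96, 7.99, 8.04 and 7.85 in PBS hearts. The pre-treated hearts lay below all others, and doxorubicin and PBS hearts overlapped. Groups apart in this direction were found for 2.57% of all probes against doxorubicin and 5.03% against PBS. The difference was -0.82 ± 0.15 for pre-treated against PBS and -0.77 ± 0.15 against doxorubicin hearts (SE, limma adjusted p = 0.0287 and 0.129). The call against PBS ended in 7 of the 13 fits that left out 1 array: PBS replicates 1 to 4 and each pre-treated replicate. The adjusted p then reached 0.0845, with the difference between -0.92 and -0.72. Under the series matrix names it was -0.22 and not called.

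The other ligand, Vegfd, had levels of 6.76 to 7.32 in pre-treated, 6.55 to 6.96 in doxorubicin and 6.01 to 6.67 in PBS hearts. Its difference from PBS in pre-treated hearts had the opposite sign to that of Vegfc, 0.58 ± 0.17 (SE, limma adjusted p = 0.119), and did not pass. It was -0.30 under the series matrix names. Itga9, the integrin subunit that helps form lymphatic valves, differed by -0.65 ± 0.22 from PBS hearts on its brighter probe (limma adjusted p = 0.153) and by 0.14 on its dimmer one. Nrp2, the coreceptor of Flt4, was detected on 1 of 3 pre-treated, 4 of 5 doxorubicin and 3 of 5 PBS arrays and differed by -0.69 ± 0.29 from doxorubicin hearts (limma adjusted p = 0.430). The median difference of the 5 genes was -0.27 for pre-treated against doxorubicin, -0.58 for pre-treated against PBS and -0.06 for doxorubicin against PBS hearts.

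**Figure D5:**
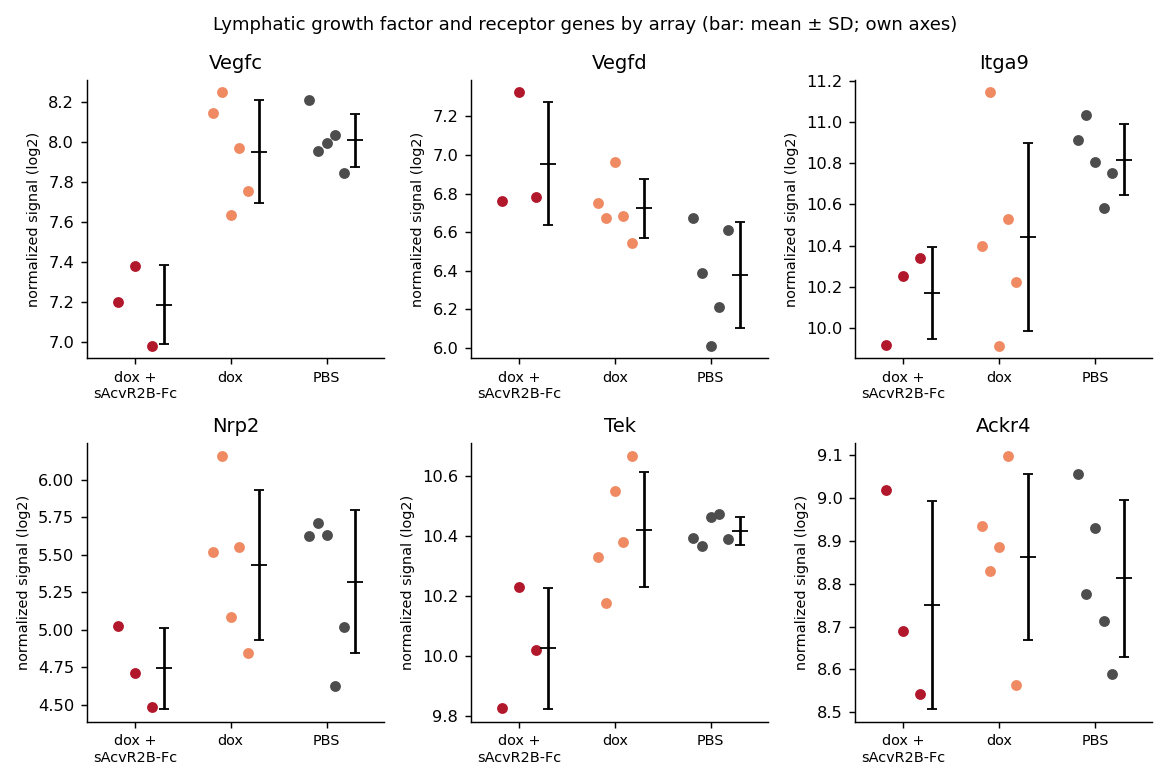
Normalized log2 signal (vertical axes, each panel its own) of Vegfc, Vegfd, Itga9, Nrp2, Tek and Ackr4 in each heart, by group from left to right doxorubicin with sAcvR2B-Fc (n = 3), doxorubicin (n = 5) and PBS (n = 5); points are arrays and bars the mean ± SD. For Vegfc the 3 pre-treated hearts, at 6.98 to 7.38, lie below all others, and for Ackr4 the 3 groups overlap.

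Of 15 further genes of lymphatic endothelium, 13 passed detection and 0 were called in any comparison. Their median difference was -0.06 for pre-treated against doxorubicin, -0.07 for pre-treated against PBS and -0.01 for doxorubicin against PBS hearts. Tek, the angiopoietin receptor of blood and lymphatic endothelium, read 9.83, 10.23 and 10.02 in pre-treated hearts, 10.18 to 10.67 in doxorubicin hearts and 10.37 to 10.47 in PBS hearts. It lay below every PBS heart in the pre-treated group, as did 5.03% of all probes, and overlapped with doxorubicin hearts. The difference was -0.39 ± 0.13 from PBS and -0.40 ± 0.13 from doxorubicin hearts (SE, limma adjusted p = 0.137 and 0.359). The scavenger receptor Ackr2, which lymphatic vessels use to clear inflammatory chemokines, stood at -0.48 ± 0.20 against doxorubicin hearts (limma adjusted p = 0.430). For the connexin gene Gja4 the difference from PBS was -0.36 ± 0.14, and for the transcription factor Gata2 0.17 ± 0.12 (limma adjusted p = 0.219 and 0.496).

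The Ccl21 and Ccl19 receptors Ccr7 and Ackr4 did not differ past the threshold, and neither did Ackr3. Ccr7, the signalling receptor on dendritic cells and T cells, was detected on 0 of 3 pre-treated, 2 of 5 doxorubicin and 1 of 5 PBS arrays, so its level was at the limit. Ackr4, the scavenger that takes up both ligands, averaged 8.75 ± 0.24 in pre-treated, 8.86 ± 0.19 in doxorubicin and 8.81 ± 0.18 in PBS hearts (SD) on its brightest probe. Its differences were -0.11 ± 0.15 against doxorubicin and -0.06 ± 0.15 against PBS hearts (SE, limma adjusted p = 0.796 and 0.875). For Ackr3, a scavenger of Cxcl12, they were 0.17 ± 0.20 and -0.14 ± 0.20 (limma adjusted p = 0.771 and 0.780).

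The lymphotoxin pathway maintains Ccl21 in lymph node stroma through the NF-kB subunits Relb and Nfkb2. Of 9 genes of this axis and of the other lymphoid chemokines, 5 passed detection and 0 were called. Relb averaged 6.18 ± 0.29 in pre-treated, 6.02 ± 0.40 in doxorubicin and 6.69 ± 0.16 in PBS hearts (SD). The Relb difference of doxorubicin from PBS hearts was -0.66 ± 0.18 (SE, limma adjusted p = 0.164), and that of pre-treated from doxorubicin hearts 0.16 ± 0.20. The lymphotoxin receptor Ltbr differed by -0.09 ± 0.17 and Nfkb2 by 0.02 ± 0.26 between pre-treated and doxorubicin hearts (limma adjusted p = 0.856 and 0.981). Cxcl12, a chemokine of stromal cells, differed there by 0.02 ± 0.11 on its brightest probe and by 0.43 and 0.04 on its other 2 passing probes, none of them called.

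Tissues near the heart that are rich in Ccl21 were checked by their markers. For lymph node stroma and high endothelial venules 0 of 6 markers passed detection. Chst4 was detected on 2 arrays, Fut7 on 1, and Cxcl13, Cr2, Glycam1 and Madcam1 on 0 arrays. The T cell genes Cd3d, Cd3e, Cd3g, Cd4 and Cd8a were also detected on 0 arrays, and Cd8b1 was the 1 T cell marker above the filter. Of 8 thymus markers 3 passed: Ccl25, detected on 12 arrays, Ptcra on 7 and Rag1 on 3. Their summed signal was 107 to 132 in pre-treated, 118 to 159 in doxorubicin and 101 to 135 in PBS hearts. All 3 were lower in pre-treated than in doxorubicin hearts (median difference -0.24), and the median difference from PBS hearts was -0.0067. Aire was detected on 2 arrays, Psmb11 on 1, and Foxn1, Dntt and Rag2 on 0 arrays. Of the B cell markers 2 of 6 passed, of the dendritic cell markers 2 of 8 and of the lung epithelium markers 1 of 7, with 0 called. These values do not say how much lymph node or thymus RNA any one heart sample held, which was not tested.

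The heart's own cells were measured in all groups. Of 10 blood endothelial markers 9 passed and 0 were called, with a summed signal of 15544 to 16308 in pre-treated, 15961 to 17046 in doxorubicin and 14905 to 17861 in PBS hearts. The endoglin gene Eng came closest, at 0.49 ± 0.11 for pre-treated against PBS hearts (SE, limma adjusted p = 0.0581). Of 7 cardiomyocyte markers 6 passed and 0 were called. Myl7 and Sln, of 4 atrial markers, were detected on 0 arrays, while Nppa and Myl4 passed and 0 were called. Among single probes, 2.57% lay lower without overlap in pre-treated than in doxorubicin hearts, and 5.03% than in PBS hearts. The 2 that passed had a summed signal of 6310 to 8371 in pre-treated, 8641 to 19697 in doxorubicin and 9657 to 12662 in PBS hearts, the pre-treated hearts lying below all others. Nppa, which ventricles also make, makes up most of this sum and differed by -0.62 ± 0.22 from doxorubicin hearts (SE, limma adjusted p = 0.396). The part of atrial tissue in the Ccl21 values was not tested. All 7 lymphatic endothelial markers, with Ccl21a among them, passed, and their summed signal of 1694 to 1804 in pre-treated, 2557 to 2757 in doxorubicin and 2187 to 2740 in PBS hearts includes the Ccl21a difference.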

How the data were processed

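Heart RNA of 13 mice was hybridised to Illumina mouse BeadChips, per the labels. The deposited non-normalized table holds 1 linear signal intensity per probe and array, beside a detection p-value (per the file headers). The deposited series matrix holds intensity values processed further by steps not given in the sources used here; it served in alternatives, with values under 1 set to 1. Columns of the non-normalized table were matched to samples through the sample names in the labels, and those of the series matrix through the sample identifiers.

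Signals were background-corrected from the detection p-values (normexp, offset 16), quantile-normalized and taken to log2 with limma 3.58.1 in R 4.3.3. Probes with detection p under 0.05 on at least 3 arrays were tested 1 by 1, with all 3 groups in 1 limma model and Benjamini-Hochberg adjustment over all 18693; a probe was called at an adjusted p under 0.05. Standard errors are those of this fit. Probe names came from the platform annotation, updated through the gene table. Correlations used permutation tests of 100000 resamples (scipy 1.17.1), two-sided. Summed signals of a marker list add the linear normalized signals of 1 probe per gene. The fit was tested on simulated data.

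The members and lists were chosen with earlier results of these data known. Named genes were all member probes, up to 4 genes of each other list with the smallest p, 1 probe each, and the 5 genes most correlated with Ccl21. Further macrophage and detection values were read from the marker lists. Array-to-array correlations over the passing probes were 0.966 to 0.992. They were taken after quantile normalization, so they do not measure how alike the samples were before it. The number of arrays limits the precision. Alternatives covered background, normalization, offset, filter, probe choice, samples in the fit, sample names, a replicate block and leaving out each array. Deviations of same-numbered arrays of different groups correlated over 0.1 in 4 of 11 pairs (-0.27 to 0.39 in all), so the numbers were not taken as pairs.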

Additional observations from a re-analysis of the deposited data

How the results depend on the processing

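Against the 34 probes called for doxorubicin against PBS, limma called 52 with no background correction, 63 with offset 50 and 9 with no filter on dim probes. Against the 12 for pre-treated against doxorubicin hearts it called 7 with only those 2 groups in the fit. Against the 126 for pre-treated against PBS hearts it called 339 with no background correction, 281 with offset 50 and 198 with detection p under 0.01. With the replicate number as a block the counts were 21 for pre-treated against doxorubicin, 213 for pre-treated against PBS and 4 for doxorubicin against PBS; the numbers do not pair the samples. Under the series matrix names limma called 0 probes in all 3 comparisons, with 568 (pre-treated against doxorubicin), 622 (pre-treated against PBS) and 277 (doxorubicin against PBS) at an unadjusted p under 0.05, and 0 on series matrix values, with 612, 633 and 321 in that order. On the 7 arrays both tables place in the same group it called 0, 6 and 0 in that order, with 916 and 1222 unadjusted for the counts of 0, and the lone pre-treated array was assumed to vary like the others. Leaving out 1 array gave 9 to 13, 14 to 353 and 2 to 387 in that order, with 353 and 387 both without doxorubicin replicate 2. The slide as a block was not run because the headers name no slide. The cause of these shifts was not tested.

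Signs changed as follows. Under the series matrix names, doxorubicin against PBS turned to 0.16 for Ccl21a (0.21 on series matrix values), 0.17 and 0.0072 for the Ccl21c probes (0.28 and 0.10) and 0.20 for Reln (0.21). There, Lyve1 stood at -0.25 for pre-treated against doxorubicin (-0.25) and -0.12 against PBS (-0.12), the dimmer Prox1 probe at -0.46 (-0.60) and -0.89 (-1.19), and Ccl19 at 0.066 against PBS (0.12). On the 7 shared arrays, doxorubicin against PBS was -0.016 for Mmrn1, 0.021 for Reln and 0.0049 for Vegfc; pre-treated against doxorubicin was -0.042 for Lyve1, and pre-treated against PBS 0.17 for Ccl19 and -0.072 for Flt4. Flt4 was -0.073 against PBS with median scaling. The replicate block gave 0.010 for Flt4 and -0.18 for Lyve1 against doxorubicin. Without 1 array, doxorubicin against PBS ran from -0.068 to 0.047 for Pdpn, -0.10 to 0.24 for Mmrn1, -0.13 to 0.056 for Reln and -0.13 to 0.022 for Vegfc. Pre-treated against doxorubicin ran from -0.083 to 0.13 for Ccl19, -0.26 to 0.040 for Flt4 and -0.11 to 0.24 for Lyve1. Pre-treated against PBS ran from -0.14 to 0.081 for Ccl19 and -0.087 to 0.21 for Flt4.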

Other observations

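A probe annotated only to the predicted gene LOC100041504, which was picked after its values were seen, lay closer to the mean Ccl21 signal than any named gene outside Ccl21 (r = 0.985 over 13 arrays and 0.840 over the 10 doxorubicin and PBS arrays). It read 6.37, 5.88 and 6.25 in pre-treated hearts, 8.44, 9.00, 8.70, 8.97 and 8.92 in doxorubicin hearts, and 9.13, 9.08, 8.76, 9.29 and 9.39 in PBS hearts. The pre-treated hearts lay below all others, by -2.64 against doxorubicin and -2.96 against PBS hearts on the log2 scale. Named as in the series matrix they differed by -0.32 and -0.47. What this probe binds was not tested.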
